A study of Mus musculus with 16 samples.

Results

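The genes described are 6 ionotropic glutamate receptor genes chosen by symbol, the kainate receptor subunit genes *Grik1*, *Grik2*, *Grik3*, *Grik4* and *Grik5* and the delta receptor subunit gene *Grid1*. They are among the 32285 genes in the matrices, and each symbol matched 1 row. Kainate receptors are glutamate-gated cation channels made of 4 subunits. The subunits encoded by *Grik1*, *Grik2* and *Grik3* (GluK1, GluK2 and GluK3) can form channels by themselves, whereas those of *Grik4* and *Grik5* (GluK4 and GluK5) bind glutamate with high affinity and reach the surface only together with one of the former. In the hippocampus these receptors sit on both sides of the mossy fiber synapse, by which granule cells (GCs) of the dentate gyrus (DG) excite CA3 pyramidal neurons, and on GABAergic interneurons. *Grid1* encodes GluD1, which is bridged to presynaptic neurexins by secreted proteins of the cerebellin family and organizes synapses.

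Nuclei came from frozen microdissected DG of 4 WT mice (Nrg1 genotype VV) and 4 mice homozygous for the V321L change in neuregulin 1 (genotype LL), with 2 females (F1, F2) and 2 males (M1, M2) of each genotype. The mice carried no other labelled allele and had no labelled treatment, and their ages are not given in the labels. RNA and open chromatin of the same nuclei were read with the Multiome kit as 1 library per mouse. The questions addressed were which subunits each class of neuron carries and whether V321L and WT mice differ within a class.

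Of 16204 nuclei, 10114 were GCs, 981 CA3 type neurons and 298 GABAergic interneurons by a gate on marker genes, none of them one of the 6 genes. The libraries differed in depth with genotype: V321L libraries had medians of 2589.5 to 4146 unique molecular identifiers (UMIs) per nucleus, and those of WT mice 1082 to 1886. Mitochondrial UMIs made up a median of 0.394% to 1.17% per V321L library, with 0.0683% to 0.124% for WT. The genotype and these library properties cannot be told apart. Of the gated GCs 9838, and of the gated interneurons 291, also lay in unsupervised clusters of the same name. The summed granule cell list of 8 markers stood between 6616 and 7581 CPM (UMIs scaled to a fixed total of all UMIs) in WT and between 4339 and 4809 CPM in V321L GCs, with 0 markers at 0 in any mouse, and the interneuron list of 5 markers between 1732 and 2210 CPM in the interneurons of all mice. The CA3 gate was less uniform: 786 of 981 nuclei lay in CA3 type clusters, but only 13 of 33 in V321L F2 and 8 of 62 in V321L M1, whose other gated nuclei were mostly in CA1 type (10 and 23) or unnamed (10 and 29) clusters. In WT F1 and WT F2, 25 and 42 of the 118 and 297 gated nuclei lay in mossy cell clusters. In gated CA3 type neurons the CA3 list of 7 markers stood between 1541 and 2731 CPM, while the CA1 list of 5 markers stood between 3.01 and 18.7 CPM in WT and between 19.8 and 186 CPM in V321L mice, and the part of these nuclei in the results was not tested. The edgeR tests of the receptor genes in CA3 type neurons are therefore also given for nuclei that both the gate and the clusters name so. This comparison was added after the data were seen, and V321L M1 falls out of it. The kainate shares, levels per 100 kb, detection, open chromatin and partner genes of CA3 type neurons rest on the gate and not on both.

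The start regions differ in base composition. Open chromatin was tested at the starts annotated in the matrices, which need not be the RefSeq start. The 250 bases before the RefSeq start (GRCm38.p6, the patch series of mm10) are shown for the 4 genes with an entry. Each GGGCGG or CCGCCC, the GC box on either strand, is in capitals.
*Grik2*, chr10:49788755-49789004, minus strand: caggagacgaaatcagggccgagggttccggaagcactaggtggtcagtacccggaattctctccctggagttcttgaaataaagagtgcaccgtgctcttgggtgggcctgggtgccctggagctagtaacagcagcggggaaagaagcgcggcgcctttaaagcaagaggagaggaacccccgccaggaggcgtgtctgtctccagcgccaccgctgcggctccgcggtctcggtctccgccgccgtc
*Grik3*, chr4:125490446-125490695, plus strand: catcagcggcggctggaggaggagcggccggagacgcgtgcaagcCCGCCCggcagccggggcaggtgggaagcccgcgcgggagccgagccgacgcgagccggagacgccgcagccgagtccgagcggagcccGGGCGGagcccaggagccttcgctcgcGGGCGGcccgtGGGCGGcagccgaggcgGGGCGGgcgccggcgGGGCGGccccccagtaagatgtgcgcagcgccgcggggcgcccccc
*Grik4*, chr9:42944372-42944621, minus strand: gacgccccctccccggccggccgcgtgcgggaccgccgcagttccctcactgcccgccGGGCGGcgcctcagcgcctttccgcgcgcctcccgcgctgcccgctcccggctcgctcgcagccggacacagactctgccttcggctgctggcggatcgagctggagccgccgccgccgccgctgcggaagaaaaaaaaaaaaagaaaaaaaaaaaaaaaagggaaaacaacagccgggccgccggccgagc
*Grik5*, chr7:25072370-25072619, minus strand: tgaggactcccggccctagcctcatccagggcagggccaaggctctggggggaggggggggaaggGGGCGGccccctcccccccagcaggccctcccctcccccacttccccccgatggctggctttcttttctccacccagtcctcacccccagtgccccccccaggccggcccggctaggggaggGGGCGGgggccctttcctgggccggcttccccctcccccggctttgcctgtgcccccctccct
The GC box was matched 6 times in *Grik3*, 2 times in *Grik5*, 1 time in *Grik4* and 0 times in *Grik2*, and 32.7% of 32851 RefSeq start regions of this length hold at least 1 match. No match was found in the 4 windows for TATAAA (the TATA box, in 12.4% of all windows), TGACGTCA (1.55%), CACGTG (6.02%) or CAGCTG (13.001%), each searched on both strands, and none of these motifs contains another. The GC content was 62.8% in *Grik2*, 82.0% in *Grik3*, 69.6% in *Grik4* and 75.2% in *Grik5*, against a median of 52.4% over all windows. A called open chromatin peak overlapped the window of *Grik2* and of *Grik4* in all 8 libraries and that of *Grik3* in 7, while none overlapped the window of *Grik5*. Peaks within 1 kb of any annotated start were called for *Grid1* in 8 libraries, for *Grik5* in 6 (4 WT, 2 V321L) and for *Grik1* in 2 (0 WT, 2 V321L), in libraries whose peaks were called separately. The number of called peaks differed between libraries. V321L F2 and M1, with a *Grik1* peak, had 94282 and 130470 peaks. V321L F1 and M2, without a *Grik5* peak, had 42140 and 36556, and WT libraries had between 61021 and 86955. The part of these numbers was not tested.

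The share of kainate UMIs that came from *Grik4* was highest in CA3 type neurons, that from *Grik1* in interneurons and that from *Grik2* in GCs. Of all UMIs of the 5 kainate genes in a mouse, *Grik2* made up 89.3% ± 4.18 in GCs, 70.6% ± 10.6 in CA3 type neurons and 63.5% ± 4.32 in interneurons (SD, n = 8 mice). *Grik4* made up 5.74% ± 1.35, 19.2% ± 7.11 and 0.819% ± 0.481, and *Grik1* 0.146% ± 0.0875, 4.14% ± 6.61 and 33.2% ± 3.46, in the same order. *Grik5* made up 3.18% ± 2.36, 4.10% ± 2.792 and 1.47% ± 1.52, and *Grik3* 1.63% ± 0.645, 1.99% ± 3.39 and 1.002% ± 0.731. The CA3 type shares include gated nuclei outside CA3 type clusters, which held 227 *Grik1* and 98 *Grik3* UMIs, against 3 and 1 inside. In V321L F2 and M1, with mostly such nuclei, *Grik1* made up 15.5% and 14.1% and *Grik4* 11.2% and 12.8%. Of 15 differences in share (5 subunits, 3 pairs of classes), 12 passed an exact two-sided sign-flip test over 8 mice after Benjamini-Hochberg adjustment. Those that set CA3 type neurons and interneurons apart from GCs moved the same way in 8 of 8 mice, in that *Grik4* was 13.4 percentage points higher in CA3 type neurons than in GCs, and *Grik1* 33.0 points higher in interneurons than in GCs (exact P = 0.00781 for each, the smallest that 8 mice allow, adjusted P = 0.0107). The 3 that did not pass were *Grik1* and *Grik3* in CA3 type neurons against GCs (3.99 and 0.367 points, adjusted exact P = 0.117 and 0.703) and *Grik3* in interneurons against CA3 type neurons (-0.993 points, adjusted exact P = 0.527). The *Grik2* difference between interneurons and CA3 type neurons (-7.04 points, adjusted exact P = 0.0293) missed the threshold without WT F1, WT F2, WT M1, WT M2, V321L F1 or V321L F2 (adjusted exact P = 0.0586 in each), when 7 mice were left.

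**Figure D1:**
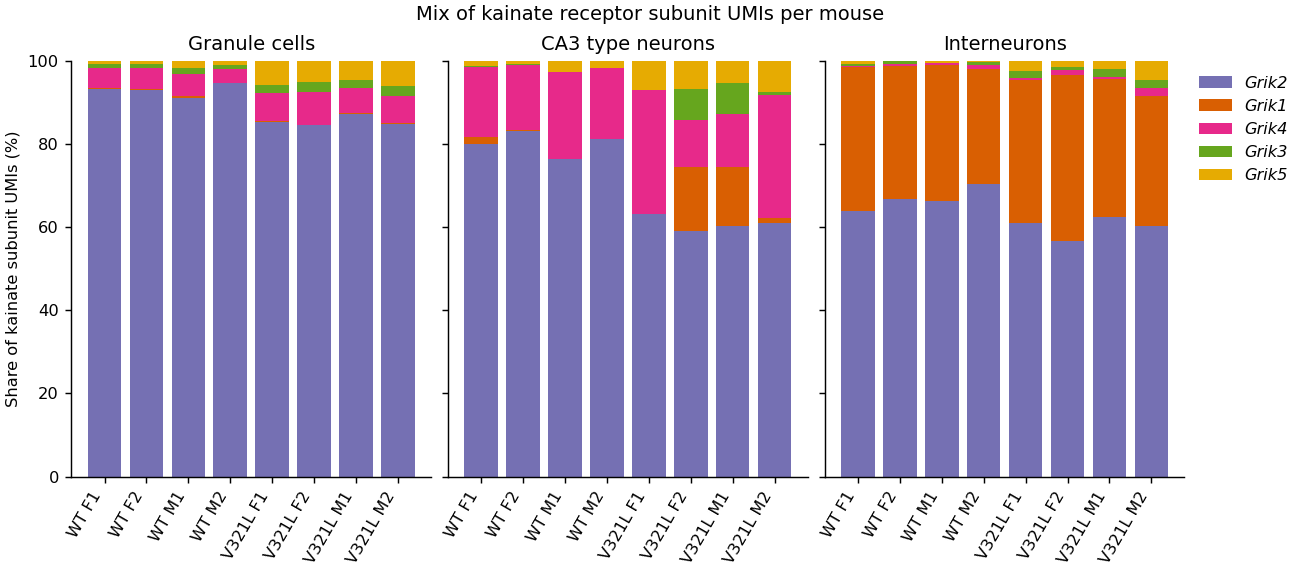
Stacked bars of the share (%) of kainate subunit UMIs taken by each of the 5 *Grik* genes, 1 bar per mouse and not scaled by gene length, in GCs, CA3 type neurons and interneurons. Classes are those of the marker gate alone. *Grik2* fills between 84.7% and 94.7% of each GC bar, *Grik4* is widest in CA3 type neurons, and *Grik1* takes between 27.6% and 39.8% of each interneuron bar.

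UMIs of nuclear RNA arise along the whole gene, and the genes differ in length: *Grid1* spans 763 kb, *Grik2* 696 kb, *Grik4* 427 kb, *Grik1* 395 kb, *Grik3* 224 kb and *Grik5* 65.8 kb. On the scale of CPM per 100 kb of gene, levels of different genes were compared within each genotype, since the genotypes differed. In GCs the order was the same in both. WT GCs had *Grik2* at 494, *Grik5* at 57.2, *Grik4* at 40.4, *Grik3* at 17.4 and *Grik1* at 1.52 CPM per 100 kb, and V321L GCs 285, 185, 36.8, 22.6 and 0.745. In CA3 type neurons the order differed between genotypes. WT mice had *Grik2* at 425, *Grik4* at 149 and *Grik5* at 84.3 CPM per 100 kb, and V321L mice, F2 and M1 included, had *Grik5* at 206, *Grik2* at 180 and *Grik4* at 105. In interneurons *Grik2* and *Grik1* stood at 573 and 478 CPM per 100 kb in WT and at 357 and 369 in V321L mice, with *Grik5* at 29.4 and 154. These are means of 4 mice, and the order of neighbouring genes was not tested. The shares of UMIs given before are not scaled by length and serve to compare 1 gene between classes or genotypes, as do the following CPM values.

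*Grik1*, whose product GluK1 is known from hippocampal interneurons, separated interneurons from GCs in every mouse. In interneurons it stood at 2071, 2144, 1684 and 1655 CPM in WT F1, F2, M1 and M2, and at 1354, 1984, 1447 and 1038 CPM in V321L F1, F2, M1 and M2. In GCs the same mice had 4.63, 5.14, 10.2 and 4.10 CPM (WT) and 5.73, 1.28, 3.74 and 1.03 CPM (V321L). The 2 classes did not overlap, and the ratio within a mouse was between 165 and 1552 in the 7 mice with more than 3 UMIs in GCs. The GC level was itself close to free RNA: 66 UMIs were counted in WT GCs where 31.1 were expected from the RNA of near-empty droplets, and 44 in V321L GCs where 12.1 were expected. In the test across all genes (edgeR, mouse as block) *Grik1* was higher in interneurons than in GCs by 8.55 ± 0.21 on the log2 scale (SE, adjusted P = 1.3e-31) and higher than in CA3 type neurons by 5.43 ± 0.70 (adjusted P = 3.35e-05). Against nuclei named CA3 type by both gate and clusters the latter difference was 10.24 ± 0.28 (adjusted P = 7.32e-15).

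Among CA3 type neurons *Grik1* was uneven, with 71.0, 11.4, 6.02 and 1.505 CPM in the WT mice and 2.18, 243, 305 and 26.4 CPM in the V321L mice. The high values were those of V321L F2 and M1, the 2 libraries whose gated nuclei lay mostly outside CA3 type clusters, and of WT F1, where all 38 UMIs came from nuclei outside them. Over all mice, the 786 gated nuclei inside CA3 type clusters held 3 *Grik1* UMIs (0.904 CPM) and the 195 outside held 227 (253 CPM). *Grik3*, which encodes the low-affinity subunit GluK3, split the same way, with 1 UMI inside and 98 outside.

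*Grik4*, encoding the high-affinity subunit GluK4, was highest in CA3 type neurons. Its level there was 675, 679, 635 and 555 CPM in the WT mice and 645, 176, 278 and 685 CPM in the V321L mice. In GCs it was 179, 193, 190 and 128 CPM in the WT mice and 150, 179, 159 and 140 CPM in the V321L mice. It was higher in CA3 type neurons in 7 of 8 mice, V321L F2 being the exception, with a median ratio of 3.64. Interneurons had between 18.4 and 61.1 CPM, below GCs and below CA3 type neurons in 8 of 8 mice. The log2 difference was 1.69 ± 0.21 for CA3 type neurons over GCs (adjusted P = 1.5e-05), -2.20 ± 0.21 for interneurons over GCs (adjusted P = 4.34e-12) and -3.79 ± 0.31 for interneurons over CA3 type neurons (adjusted P = 4.45e-07). Within nuclei named CA3 type by both gate and clusters the first was 2.03 ± 0.12 and the last -4.02 ± 0.27, and V321L F2 then had 295 CPM.

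*Grik2*, encoding the main pore-forming subunit GluK2, was high in all 3 classes and differed less between them. Interneurons had 3841, 4467, 3442 and 4227 CPM in WT and 2385, 2833, 2731 and 2003 CPM in V321L mice. GCs had 3463, 3555, 3161 and 3585 CPM in WT and 1913, 1967, 2258 and 1789 CPM in V321L mice. CA3 type neurons had 3244, 3598, 2340 and 2672 CPM in WT and 1368, 925, 1309 and 1406 CPM in V321L mice. *Grik2* was lower in CA3 type neurons than in GCs in 7 of 8 mice (log2 difference -0.41 ± 0.11, adjusted P = 0.0092) and lower than in interneurons in 8 of 8 (interneurons over CA3 type 0.63 ± 0.16, adjusted P = 0.00783). With nuclei named CA3 type by both gate and clusters these differences were -0.39 ± 0.10 and 0.62 ± 0.14 (adjusted P = 0.00337 and 0.00151). Interneurons exceeded GCs in CPM in 8 of 8 mice by a median ratio of 1.19, but the fitted difference of 0.13 ± 0.11 did not pass (adjusted P = 0.41), and it passed with library sizes in place of TMM factors (0.27, adjusted P = 0.0188).

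*Grik5*, which encodes the high-affinity subunit GluK5, was higher in CA3 type neurons than in GCs by 0.39 ± 0.11 (adjusted P = 0.0092), in 7 of 8 mice, and lower in interneurons than in CA3 type neurons (log2 difference -0.74 ± 0.22, adjusted P = 0.0186). The former did not pass without V321L M2 (0.35, adjusted P = 0.0725) or with nuclei thinned to 1000 UMIs (0.24, adjusted P = 0.478). With nuclei named CA3 type by both gate and clusters these differences were 0.48 ± 0.13 and -0.77 ± 0.25 (adjusted P = 0.00312 and 0.0175). *Grid1* did not differ between the 3 classes at the threshold, with log2 differences of -0.12 ± 0.14 (CA3 type over GCs), -0.28 ± 0.12 (interneurons over GCs, adjusted P = 0.0621) and -0.06 ± 0.15 (interneurons over CA3 type). With nuclei named CA3 type by both gate and clusters the first was -0.21 ± 0.11 and the last 0.01 ± 0.17, and neither passed. *Grik3* in CA3 type neurons against GCs was -1.003 ± 0.62 (adjusted P = 0.231) by the gate alone. With the 1 UMI in 786 nuclei that gate and clusters share, it was lower (adjusted P = 1.88e-11), and the call was also made without V321L M1 (-1.90, adjusted P = 0.00792).

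In counts, 3 of the 5 genes tested were called between CA3 type neurons and GCs, where 37.3% of all genes tested were called. Between interneurons and GCs 2 of 6 were called, with 37.5% of all genes, and between interneurons and CA3 type neurons 4 of 5, with 35.3%. In the comparison of interneurons with GCs the share called among the receptor genes was thus near that of all genes.

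**Figure D2:**
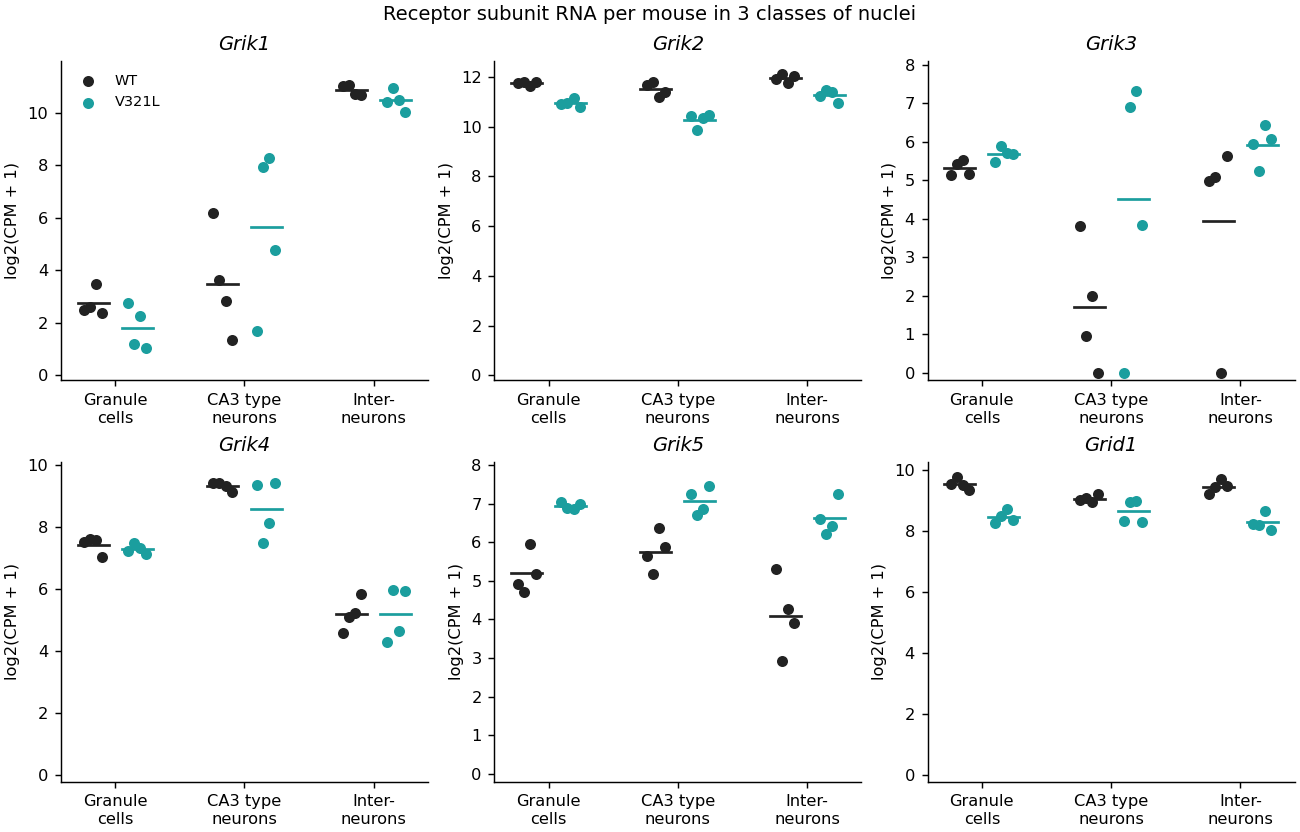
Level of each subunit gene as log2(CPM + 1) in GCs, CA3 type neurons and interneurons, with 1 point per mouse (black, WT; teal, V321L) and a line at the mean of 4 mice. *Grik1* is near 11 in interneurons and under 4 in GCs, *Grik4* is highest in CA3 type neurons, and the V321L points of *Grik2* lie under all WT points in each class. How many of all genes separate in this way was not counted.

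Detection in single nuclei was also counted. A *Grik1* UMI was found in 80.5% of 154 WT interneurons (95% Wilson interval 73.6 to 86.0) and 77.1% of 144 V321L interneurons (69.6 to 83.2), against 0.692% of 6216 WT GCs and 0.641% of 3898 V321L GCs. Of the 124 WT interneurons with *Grik1*, 121 also had a *Grik2* UMI, which 96.1% of all WT interneurons had. A *Grik4* UMI was found in 77.0% of 697 WT CA3 type neurons (73.8 to 80.01), 24.8% of WT GCs (23.7 to 25.9) and 9.09% of WT interneurons (5.49 to 14.7), although interneurons (median 2556 UMIs) were deeper than GCs (1594.5). Microglia, which should lack these channels, had a *Grik1* UMI in 0 of 75 WT nuclei, which allows up to 4.00%, a *Grik4* UMI in 6.67% and a *Grik2* UMI in 30.7%, at a median of 831 UMIs. In V321L libraries 6.53% of 245 microglia had a *Grik2* UMI. These microglia are those of the gate. Over all mice they held 478 CPM of *Grik2*, whereas the nuclei of the microglia cluster held 17.1 CPM. The rates in gated microglia thus cannot be read as a background rate, and the part of nuclei outside that cluster was not tested. The *Grik4* intervals of WT interneurons and WT microglia (2.88 to 14.7) overlapped, at unequal depth and with nuclei pooled over mice. From the RNA of near-empty droplets, 2.89 *Grik4* UMIs were expected in WT interneurons, where 18 were counted. In V321L interneurons 1.41 were expected and 27 counted. Intervals cover counting error only.

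V321L GCs carried less *Grik2* and *Grid1* and more *Grik5* than WT GCs, with no overlap between the 4 mice of each genotype. The share of all genes without overlap was not counted. *Grik2* was 3441 ± 194 CPM in WT and 1982 ± 199 CPM in V321L mice, *Grid1* 754 ± 91.0 and 356 ± 49.2 CPM, and *Grik5* 37.6 ± 15.8 and 122 ± 6.91 CPM (SD, n = 4 each). *Grid1* stood at 745, 879, 732 and 661 CPM in WT F1, F2, M1 and M2 and at 309, 365, 422 and 330 CPM in the V321L mice. *Grik5* stood at 29.4, 25.2, 60.5 and 35.5 CPM in WT and at 130, 118, 115 and 125 CPM in V321L mice, so that the highest WT mouse, M1, was below the lowest V321L mouse. The log2 differences (V321L over WT, edgeR) were -1.24 ± 0.13 for *Grik2* (adjusted P = 2.5e-06), -1.53 ± 0.15 for *Grid1* (adjusted P = 1.09e-06) and 1.33 ± 0.17 for *Grik5* (adjusted P = 1.04e-05). *Grik4* differed by -0.58 ± 0.14 (adjusted P = 0.00244), with CPM of the groups overlapping (173 ± 30.2 and 157 ± 16.7). *Grik1* differed by -1.38 ± 0.46 (adjusted P = 0.0147) at the low counts given above. *Grik3* stood at 34.4, 42.0, 44.8 and 34.9 CPM in WT and 43.0, 57.7, 51.3 and 50.4 CPM in V321L mice and differed by -0.07 ± 0.14 (adjusted P = 0.689).

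The background of this comparison was high. Of 12209 genes tested in GCs, 70.0% were called, 38.6% higher and 31.4% lower in V321L, beside 5 of the 6 receptor genes, 1 higher and 4 lower. The scale also mattered: the median of all genes was 0.12 with TMM factors and 0.57 with library sizes. The change of scale moves all genes alike, and relative to the median with TMM factors the differences were -1.50 for *Grik1*, -1.36 for *Grik2*, -0.18 for *Grik3*, -0.70 for *Grik4*, 1.21 for *Grik5* and -1.65 for *Grid1*. Taken from 0, however, library sizes gave no call for *Grik1* (-0.93, adjusted P = 0.0951) or *Grik4* (-0.13, adjusted P = 0.376) and a higher *Grik3* (0.39, adjusted P = 0.0216).

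Gene length moved with the genotype difference. The 863 genes tested of at least 200000 bases, a class that includes every receptor gene here except *Grik5*, had a median log2 difference of -1.04 in GCs, and 91.9% of them were called lower and 1.04% higher in V321L. Between the 10th and the 90th percentile they ranged from -1.57 to -0.41, so *Grik2* (-1.24), *Grid1* (-1.53) and *Grik1* (-1.38) lay within that range and *Grik4* (-0.58) at its upper side. *Grik3* (-0.07) was above the 90th percentile of these long genes. The 1269 genes tested of a length close to that of *Grik5* had a median of -0.31 and a 90th percentile of 0.49, which *Grik5* (1.33) exceeded. Lengths were available for 94.6% of the genes tested, and the part of length, depth or mitochondrial share in the difference of any 1 gene was not tested.

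In CA3 type neurons 3 genes were called. *Grik2* was lower (-1.53 ± 0.23, adjusted P = 0.000294), *Grid1* lower (-0.69 ± 0.19, adjusted P = 0.0106) and *Grik5* higher (1.11 ± 0.26, adjusted P = 0.00464) in V321L. *Grik5* stood at 48.6, 35.1, 81.2 and 57.2 CPM in WT and at 150, 103, 116 and 173 CPM in V321L mice, without overlap. The share of all genes without overlap was not counted here either. *Grid1* stood at 518, 549, 493 and 591 CPM in WT and at 320, 501, 505 and 319 CPM in V321L mice, where F2 and M1, the libraries with few nuclei in CA3 type clusters, reached the WT range. In nuclei named CA3 type by gate and clusters, the 3 differences were -1.39 ± 0.23, -0.78 ± 0.21 and 1.23 ± 0.25 and all passed. *Grik4* did not pass (-0.75 ± 0.37, adjusted P = 0.114), its low V321L mice being again F2 and M1, and passed without V321L M2 (-1.03, adjusted P = 0.0483). *Grik1* did not pass (2.30 ± 1.07, adjusted P = 0.0989) but did without WT F1 (3.92, adjusted P = 0.0293) or V321L F1 (2.72, adjusted P = 0.0266), with the uneven gate described above, and *Grik3* was too low to test. *Grid1* missed the threshold without WT M2 (-0.63, adjusted P = 0.055), with library sizes (-0.40, adjusted P = 0.116) and with nuclei thinned to 1000 UMIs (-0.35, adjusted P = 0.233). Of 6295 genes tested 46.3% were called, 26.4% higher and 19.9% lower, against 1 higher and 2 lower of 5 receptor genes tested. The 741 genes tested of at least 200000 bases had a median of -0.685, with 54.4% called lower and 3.10% higher. Their 10th to 90th percentiles were -1.39 to 0.43. *Grid1* (-0.69) and *Grik4* (-0.75) lay within that range, *Grik2* (-1.53) below it and *Grik1* (2.30) above it. Genes close to *Grik5* in length had a 90th percentile of 0.74, which *Grik5* (1.11) exceeded.

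Interneurons had less *Grik2* (-0.68 ± 0.17, adjusted P = 0.0056) and *Grid1* (-1.14 ± 0.19, adjusted P = 0.000217) and more *Grik5* (2.38 ± 0.47, adjusted P = 0.000972) in V321L mice. *Grid1* stood at 593, 695, 842 and 723 CPM in WT and 304, 293, 406 and 264 CPM in V321L mice. *Grik5* rested on 9 WT and 70 V321L UMIs. The mix of interneuron types, given below, also differed between genotypes, and its part in these differences was not tested. *Grik1*, their distinguishing subunit, was 1888 ± 255 CPM in WT and 1456 ± 393 CPM in V321L mice and did not pass (-0.38 ± 0.20, adjusted P = 0.156), though it did without V321L F2 (-0.56, adjusted P = 0.04). *Grik3* and *Grik4* were too low to test. Of 2937 genes tested 28.5% were called, 17.2% higher and 11.3% lower, against 1 higher and 2 lower of 4 receptor genes tested. The 675 genes tested of at least 200000 bases had a median of -0.384, with 26.2% called lower and 3.85% higher. Their 10th to 90th percentiles were -0.92 to 0.32. *Grik1* (-0.38) and *Grik2* (-0.68) lay within that range and *Grid1* (-1.14) below it. Genes close to *Grik5* in length had a 90th percentile of 0.77, which *Grik5* (2.38) exceeded. With nuclei thinned to 1000 UMIs, *Grik5* was too low to test and none of the other 3 passed, *Grik2* being at -0.37 (adjusted P = 0.197) and *Grid1* at -0.54 (adjusted P = 0.25).

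**Figure D3:**
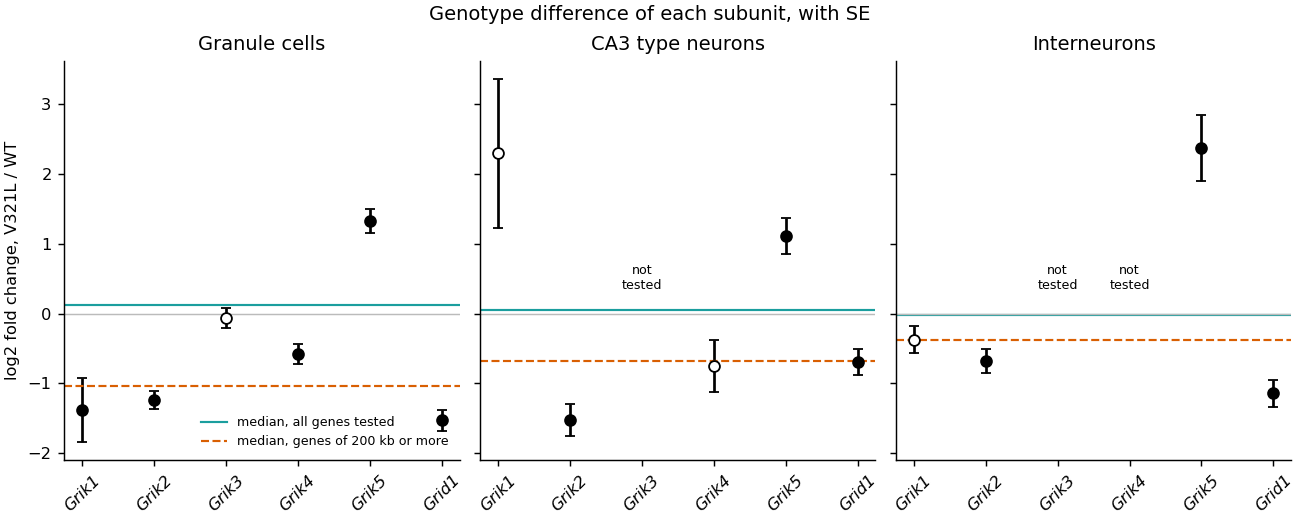
Log2 fold change (V321L over WT) of each subunit gene in GCs, CA3 type neurons and interneurons, with SE from 4 against 4 mice. Filled points passed the adjusted threshold of 0.05, the solid line is the median of all genes tested and the dashed line that of genes of at least 200000 bases, and *Grik5* is the only subunit gene that passed above 0 in each class.

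Whether the genotype difference itself depended on the class was tested by an interaction term. No receptor gene was called for CA3 type neurons against GCs, where 0.0276% of 10883 genes were called, or for interneurons against GCs, where 1.56% of 10290 were called. At an unadjusted P under 0.05 the counts were 5 and 1 of 6 in edgeR, beside 1058 of 10883 and 1153 of 10290 of all genes tested. DESeq2 also called 0 of the receptor genes in each. Without V321L F1, *Grik1* (4.67, adjusted P = 0.0121) and *Grik3* (3.90, adjusted P = 0.0449) passed in the former and *Grik1* (1.35, adjusted P = 0.0295) in the latter. In nuclei that gate and clusters both named CA3 type, *Grik1* was too low to test and *Grik3*, at 3.86 ± 3.01, did not pass.

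The subunit mix of GCs differed between genotypes in 4 of 5 subunits. *Grik2* fell from 93.1% ± 1.42 of kainate UMIs in WT to 85.6% ± 1.17 in V321L mice, while *Grik5* rose from 1.03% ± 0.487 to 5.32% ± 0.693, *Grik4* from 4.69% ± 0.908 to 6.80% ± 0.656 and *Grik3* from 1.06% ± 0.176 to 2.19% ± 0.287. Each was without overlap between genotypes (exact permutation P = 0.0286, the smallest that 4 against 4 mice allow, adjusted P = 0.0357). *Grik1* did not pass (0.165% and 0.126%, exact P = 0.514). The shares sum to 100%, so they are not independent, and *Grik4* did not pass without V321L F2 (1.81 points, adjusted exact P = 0.0714). Gene length, with which the genotype difference moved in GCs, is not accounted for in the shares, and its part was not tested. Although the shares of *Grik4* and *Grik3* rose, their levels differed by -0.58 and -0.07 on the log2 scale (edgeR).

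Detection depended on the depth of the nuclei. At full depth a *Grik5* UMI was found in 6.49% ± 1.30 of WT GCs and 36.8% ± 3.96 of V321L GCs, a *Grik4* UMI in 24.3% ± 4.26 and 42.6% ± 8.55, and a *Grik3* UMI in 6.65% ± 0.871 and 17.1% ± 4.60 (SD over 4 mice). None of the 6 shares passed (adjusted exact P = 0.0571 for these 3, with an unadjusted exact P of 0.0286, and no other under 0.05). Median depth was 1594.5 UMIs in WT and 3857 in V321L GCs. After thinning every GC to 1000 UMIs, which left 4767 WT and 3842 V321L GCs, 4 of 6 passed (adjusted exact permutation P = 0.0429 each). Detection was tested for the receptor genes alone, and the share of all genes that would pass was not counted. In the edgeR test of these thinned GCs, 3124 genes were called higher and 2813 lower of 9154. *Grik2* was then detected in 93.0% ± 0.836 of WT and 82.6% ± 4.62 of V321L GCs, *Grid1* in 49.4% ± 3.88 and 27.7% ± 3.35, *Grik5* in 3.68% ± 1.63 and 11.7% ± 0.340, and *Grik1* in 0.583% ± 0.261 and 0.140% ± 0.107. *Grik4* was at 15.1% ± 1.93 and 14.5% ± 1.199 (exact P = 0.657) and *Grik3* at 3.67% ± 0.576 and 4.74% ± 0.502 (adjusted exact P = 0.0686). In the thinned nuclei the direction of *Grik2*, *Grik4* and *Grid1* was thus opposite to that at full depth.

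**Figure D4:**
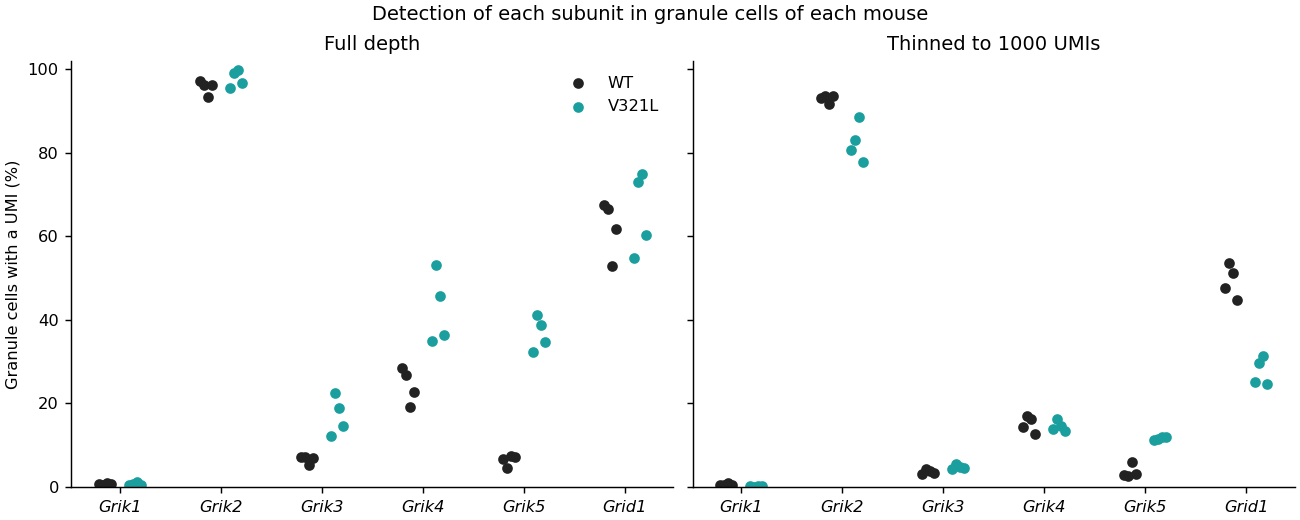
Share of GCs (%) with at least 1 UMI of each subunit gene, 1 point per mouse (black, WT; teal, V321L), at full depth and after thinning to 1000 UMIs per nucleus. The *Grid1* points overlap at full depth and separate after thinning, and the *Grik4* points separate at full depth and overlap after thinning.

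Open chromatin at the starts gave no called difference. *Grik2*, *Grik4* and *Grid1*, each with a peak within 1 kb of a start in every library, were tested. In GCs the V321L over WT difference was -0.04 ± 0.18, -0.10 ± 0.17 and -0.21 ± 0.11 on the log2 scale, with 0 of 3 called and 0.0158% of 12693 genes called. CA3 type neurons against GCs gave 0 of 3 called, with 7.63% of 12651 genes, and *Grik4*, whose RNA was higher there, stood at 64.8 ± 21.7 against 68.6 ± 13.6 in CPM of ATAC counts (SD, 8 mice). Interneurons against GCs gave 0 of 3 called, with 3.50% of 12554 genes. There *Grik4* stood at 38.5 ± 33.5 CPM and differed by -0.89 ± 0.36 (edgeR, adjusted P = 0.211), and with a window of 5 kb by -1.10 (edgeR, adjusted P = 0.0405). It was the only call among the 9 tests at an unadjusted threshold of 0.05 (0, 0 and 1 in the 3 comparisons). Of all genes tested, 1148 of 12693, 2581 of 12651 and 1728 of 12554 were under that threshold, in the same order.

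Within interneurons, those with markers of medial (MGE type, 133 nuclei) and caudal (CGE type, 115 nuclei) ganglionic eminence origin differed in *Grid1*. Their mix differed with genotype. In F1, F2, M1 and M2, MGE type nuclei numbered 13, 32, 20 and 21 in WT and 14, 9, 14 and 10 in V321L mice. CGE type nuclei numbered 10, 13, 9 and 11 in WT and 23, 13, 12 and 24 in V321L mice. MGE type nuclei were thus the more numerous in every WT mouse, and among V321L mice only in M1. MGE type nuclei had less in 6 of 6 mice with at least 10 nuclei of each type (log2 difference -0.98 ± 0.22, adjusted P = 0.00469). In WT mice *Grid1* was 501 ± 81.8 CPM in MGE type (n = 4) and 1098 ± 133 CPM in CGE type nuclei (n = 3), and in V321L mice 254 ± 119 (n = 3) and 423 ± 71.8 CPM (n = 4). *Grik1* (0.33 ± 0.24) and *Grik2* (-0.10 ± 0.18) did not pass, and 1 of 3 receptor genes was called, with 13.6% of 1253 genes.

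The study set apart GCs that carry *Sorcs3*. The 1072 GCs with a *Sorcs3* UMI had more *Grik2* (0.28 ± 0.04, adjusted P = 1.84e-10, higher in 8 of 8 mice) and less *Grid1* (-0.33 ± 0.05, adjusted P = 2.04e-07, lower in 7 of 8 mice) than the other GCs of the same mouse. *Grik2* was 4066 ± 453 CPM in *Sorcs3* GCs and 3348 ± 191 CPM in other GCs of WT mice, and 2296 ± 159 and 1936 ± 210 CPM in V321L mice. *Grik3* was lower in 7 of 8 mice and did not pass (-0.37 ± 0.15, adjusted P = 0.0746), though it did without V321L F2 (-0.56, adjusted P = 0.0146). Of 5 receptor genes tested 2 were called, with 14.1% of 8828 genes. GCs with a *Sorcs3* UMI were deeper (median of 3100.5 against 2354 UMIs), and the part of this selection was not tested.

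Proteins that bind these receptors were taken from a list of 20 genes, of which 19 were in the matrices. In V321L GCs 14 were tested, 6 were higher and 7 lower, where 38.6% and 31.4% of all genes were called higher and lower. Among the 4 with the largest differences were the secreted synapse organizer *C1ql2* (3.42 ± 0.18, adjusted P = 1.68e-08), which binds kainate receptors at the mossy fiber synapse, and the kinesin *Kif17* (1.51 ± 0.16, adjusted P = 2.79e-06). *C1ql2* stood at 24.02 ± 9.94 CPM in WT and 326 ± 11.4 CPM in V321L GCs. *Neto1* and *Neto2*, which encode the auxiliary subunits of kainate receptors, were lower (-1.13 ± 0.09, adjusted P = 3.46e-07, and -0.82 ± 0.29, adjusted P = 0.0197), and *C1ql3* did not pass (0.22 ± 0.13). *Neto1* stood at 350 ± 12.9 CPM in WT and 217 ± 6.49 CPM in V321L GCs. *Neto2* was low, at 12.2 ± 3.74 and 9.39 ± 3.17 CPM, and its values overlapped between genotypes. The part of gene length and of the scale in the differences of partner genes was not tested. The median of the 14 was -0.30, against 0.12 for all genes.

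The auxiliary subunit genes also differed between classes. *Neto2* was 10.8 ± 3.54 CPM in GCs, 207 ± 43.5 CPM in CA3 type neurons and 126 ± 31.8 CPM in interneurons (SD, n = 8), a log2 difference from GCs of 4.34 ± 0.20 (adjusted P = 7.53e-10) and 3.49 ± 0.22 (adjusted P = 8.46e-18). *Neto1* was higher than in GCs by 0.86 ± 0.25 in CA3 type neurons (adjusted P = 0.0135) and by 0.92 ± 0.12 in interneurons (adjusted P = 3.01e-08). *C1ql2* and *C1ql3* were lower than in GCs in CA3 type neurons (log2 differences -4.87 ± 0.20 and -4.17 ± 0.32) and lower in interneurons (-4.93 ± 0.31 and -5.00 ± 0.29). The other genes among the 4 largest were the neurexin *Nrxn3* in CA3 type neurons (2.45 ± 0.11) and the scaffold genes *Grip2* (5.49 ± 0.52) and *Grip1* (4.60 ± 0.13) in interneurons. Of the list, 5 genes were higher and 4 lower of 13 tested in CA3 type neurons, where 37.3% of all genes were called, and 8 higher and 6 lower of 15 tested in interneurons, where 37.5% were called.

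Outside the 3 neuron classes, oligodendrocyte precursor cells (OPCs, 206 nuclei) carried *Grik1*, *Grik4* and *Grid1*. *Grik1* was 676 ± 178 CPM in WT and 449 ± 91.0 CPM in V321L OPCs, after interneurons in rank and above oligodendrocytes (142 ± 50.6 CPM), with no overlap between neighbours among these 3 classes. Overlap of classes in this paragraph was judged by mean ± SD over mice and not by the values of single mice. *Grid1* was highest in OPCs (880 ± 206 CPM, n = 8), where its mean ± SD overlapped that of GCs, the next class. *Grik4* ranked CA3 type neurons, OPCs (276 ± 85.1 CPM), immature neurons (248 ± 112 CPM, 4 V321L mice) and GCs, each overlapping the next. For *Grik2*, *Grik3* and *Grik5* every class overlapped its neighbour in rank. *Grik3* was highest in OPCs at 96.7 ± 84.6 CPM, of 4 WT and 30 V321L UMIs.

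**Figure D5:**
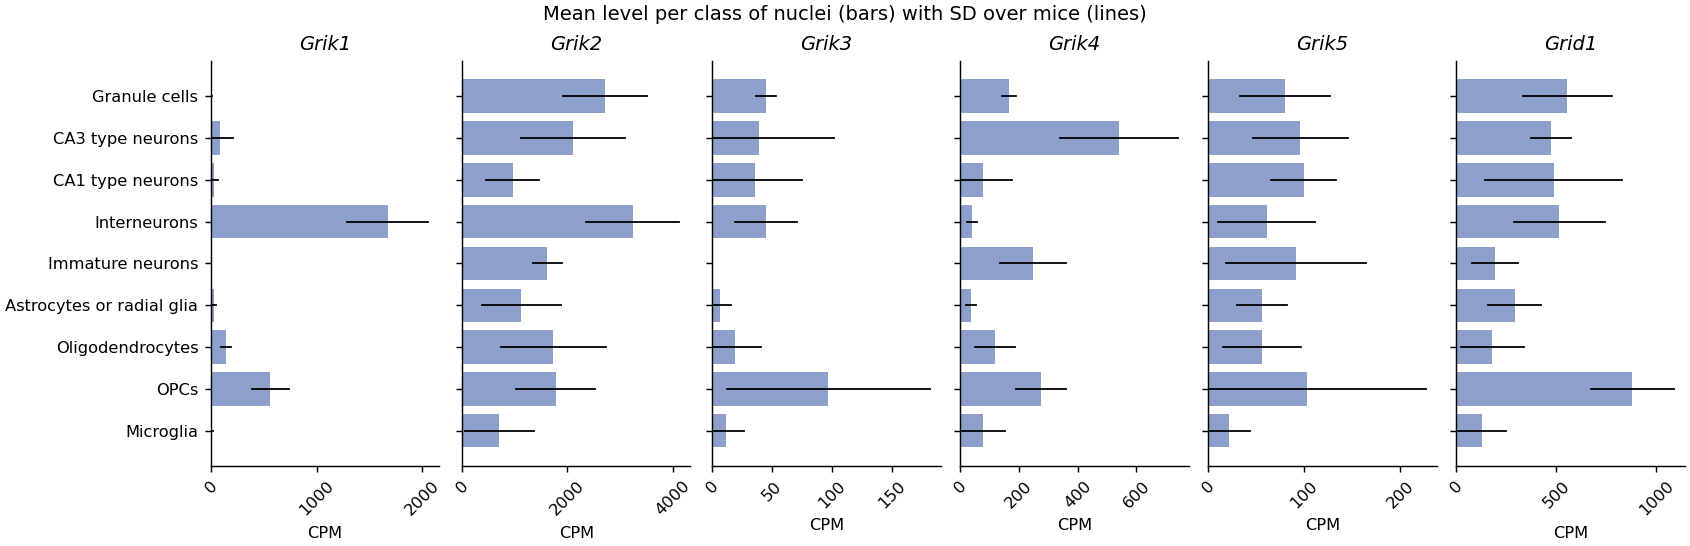
Mean CPM of each subunit gene (bars) and SD over mice (lines) in 9 marker-gated classes with at least 10 nuclei in at least 4 mice. *Grik1* is high in interneurons and OPCs, *Grik4* in CA3 type neurons, *Grid1* in OPCs, and *Grik2* is spread over all classes.

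Across the 11 classes with at least 20 nuclei, the genes most like each receptor gene in log2(CPM + 1) of the summed class, among 12527 genes that are no gate marker, were listed by Pearson correlation, a description over classes that share libraries. For *Grik1* they were *Tmem196* (0.91), *6330411D24Rik* (0.89) and *Elfn1* (0.89), for *Grik2* *Usp32* (0.88), *Eaf2* (0.86) and *Polq* (0.86), and for *Grik4* *Nexmif* (0.93), *Usf3* (0.92) and *Zscan18* (0.91). *Grik3* was most like *A230077H06Rik* (0.95), *9530052E02Rik* (0.94) and *Zfp72* (0.93), *Grik5* like *Akap6* (0.95), *Tctn1* (0.95) and *Ebf4* (0.94), and *Grid1* like *Cntn1* (0.91), *Fgf14* (0.90) and *Galnt13* (0.90).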

How the data were processed

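Nuclei of the dentate gyrus of 8 mice were read with the Multiome kit, and the authors deposited 1 matrix per mouse of UMI counts per gene and of raw counts of ATAC fragments per peak, made with Cell Ranger ARC 2.0.2 on mm10 and not normalized. Peaks were called per library, so they differ between libraries. The receptor genes, gate markers and gene lists were chosen with earlier results of these data known.

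Nuclei had at least 500 UMIs, 250 genes and 500 ATAC counts and lay under the upper limits of the study's methods. A simulated-doublet score more than 2 SD over the mean removed 811 of 17015 nuclei. A gate on marker UMIs (at least 3 for granule and CA3 type neurons, at least 2 otherwise, from at least 2 markers) named the classes and left 13.9% unnamed. Granule UMIs had to reach 2 times those of any other list. Other classes needed 2 times the next list other than granule and 0.5 times the granule UMIs, or for CA3 type neurons at least as many. Interneurons were gated more loosely. Their UMIs had to reach 0.5 times the granule UMIs and to equal or exceed the remaining lists, leaving out those of CA3 type, Cajal-Retzius and immature neurons. Of the granule, CA3 type and interneuron classes 733, 92 and 83 nuclei lay near the limit. Leiden clusters (3000 variable genes without the receptor genes, 75 components, 20 neighbours, resolution 1) were the alternative. Barcodes occurring in more than 1 library numbered 156. Cells were not used as replicates: counts were summed per mouse and class with at least 10 nuclei and tested by the edgeR 4.0.16 quasi-likelihood test (TMM factors, default expression filter, Benjamini-Hochberg over all genes tested, threshold 0.05), 4 WT against 4 V321L mice, or with the mouse as block between classes and in the interactions. An adjusted P always refers to that test or, where named, to an exact test. The edgeR steps were tested on simulated data. Shares were compared by exact permutation, two-sided, over mice. P-values measure the spread between mice with 1 library each, and Wilson intervals and zero limits (3 counts) cover counting error only. Free RNA was estimated from barcodes of at most 100 UMIs. Depth was between 4326426 and 14624265 UMIs per WT library and between 15505354 and 23582057 per V321L library.

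All 6 genes are named. Of the 20 partner genes, the 4 with the largest change among those past the threshold in a comparison are named, and Neto1, Neto2, C1ql2 and C1ql3 throughout; 1 of the 20 is not analysed here, and some named results are not reported here. Alternatives were library sizes, DESeq2 size factors, DESeq2 1.42.0, no expression filter, thinning to 1000 UMIs per nucleus, clusters, a 5 kb window at starts and leaving out each mouse. Subtraction of free RNA was a further one. For some comparisons there were also a replicate block, sex as a covariate, no mitochondrial limit, doublets kept, no ATAC minimum, and nuclei named by both gate and clusters.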

Additional observations from a re-analysis of the deposited data

Results flagged for a closer look

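Of 36 groups of 4 mice tested for a mouse that stands apart from the other 3 (chance gives about 1 in 20), 2 had such a mouse, both for *Grik1* in a class where it is low. In GCs WT M1 had 10.2 CPM, and the other WT mice had between 4.10 and 5.14 CPM. In CA3 type neurons WT F1 had 71.0 CPM, and the other WT mice had between 1.505 and 11.4 CPM. The latter value came from 38 UMIs in 5 nuclei, up to 16 in 1 nucleus, and none of these UMIs lay in a nucleus of a CA3 type cluster.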

How the results depend on the processing

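Of 1199 values of the 6 genes under an alternative, 1086 kept direction and side of the threshold, 40 passed only under the alternative, 22 passed only in the analysis reported, and 51 changed direction, 1 of them among 560 called values. The causes were not tested.

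Without an expression filter the receptor genes called numbered 6 (genotype, CA3 type), 5 (CA3 type against GCs), 4 (interneurons against GCs), 3 and 2 (interactions of CA3 type neurons and interneurons) and 0 (MGE against CGE type). In the same order, all genes called higher and lower numbered 2713 and 1708 of 19838, 1541 and 4037 of 24837, and 1460 and 3298 of 24518. In the interactions they numbered 194 and 132 of 24837 and 488 and 0 of 24518, and for MGE against CGE type 122 and 108 of 15806. Thinned, the receptor genes called numbered 1 (genotype, CA3 type), 0 (genotype, interneurons), 2 (CA3 type interaction), 0 (MGE against CGE type) and 4 (detection). For the first 4 of these, all genes called higher and lower numbered 259 and 227 of 1973, 52 and 30 of 515, 104 and 0 of 8021, and 23 and 20 of 157. The 5 kb window gave 1 call (start ATAC, interneurons against GCs), with 172 of 14415 genes called higher and 786 lower. Leaving out 1 mouse, the ranges were 5 to 5 (genotype, GCs), 2 to 4 (CA3 type), 3 to 4 (interneurons), 2 to 4 (CA3 type against GCs), 2 to 3 (interneurons against GCs), 4 to 4 (interneurons against CA3 type), 0 to 2 and 0 to 1 (interactions), 1 to 1 (MGE against CGE type), 2 to 3 (*Sorcs3* GCs), 0 to 0 (ATAC and detection), and 11 to 12 and 3 to 4 (shares by class and genotype). These ranges are of the receptor genes, and those of all genes called are not reported here.

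Direction changed for *Grik3*, genotype in GCs, with library sizes (0.39), without a filter (0.0415) and without 1 mouse (-0.175 to 0.0169), and for *Grik1*, genotype in interneurons, thinned (0.0831). For interneurons against GCs it changed without a filter (*Grik2* -0.18, *Grik3* -0.28), in DESeq2 (*Grik3* -0.0043), thinned (*Grik2* -0.0659, *Grik3* -0.0701) and without 1 mouse (*Grik3* -0.133 to 0.117). For interneurons against CA3 type neurons *Grid1* was 0.0286 with library sizes, 0.14 thinned, 0.0063 by clusters, 0.0104 by gate and clusters and -0.110 to 0.122 without 1 mouse. In the CA3 type interaction *Grik4* was 0.0319 thinned and *Grik3* -0.34 by clusters. In the interneuron interaction *Grid1* was -0.0683 with library sizes, -0.0450 with DESeq2 size factors and -0.0458 in DESeq2, *Grik3* -0.12 thinned and *Grik4* -0.14 by clusters. In *Sorcs3* GCs *Grik4* was -0.15 without a filter and *Grik5* -0.178 to 0.0047 without 1 mouse. At starts the 5 kb window gave 0.10 (*Grik4*, genotype), -0.10 (*Grik2*, CA3 type) and -0.15 (*Grik2*, interneurons), and leaving out 1 mouse -0.188 to 0.0930 (*Grik2*, genotype), -0.262 to 0.0591 (*Grik4*, genotype), -0.0333 to 0.227 (*Grik2*, CA3 type) and -0.0811 to 0.0527 (*Grik4*, CA3 type). In shares, *Grik5* of CA3 type neurons less GCs was -0.000269 points thinned, and by clusters *Grik1* was -0.0541, *Grik3* -1.46 and *Grik3* of interneurons less CA3 type 0.986. Without 1 mouse *Grik3* of CA3 type less GCs was -0.347 to 0.693 and *Grik1* of GCs by genotype -0.0826 to 0.0035. Detection changed thinned (*Grik2* -10.4, *Grik4* -0.601 and *Grid1* -21.6 points) and without 1 mouse (*Grik1* -0.279 to 0.0127).

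The replicate block gave 5, 3 and 3 calls for genotype in GCs, CA3 type neurons and interneurons and changed no call. Same-numbered mice correlated at 0.104, 0.316, -0.117 and 0.0406 over 10450 genes, so the numbers do not pair the mice. Low counts of *Grik1* and *Grik3* in GCs and CA3 type neurons limit their values.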

Other observations

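Single nuclei were also scored for how many kainate subunits they carried together. At least 1 kainate UMI was found in 96.9% of WT and 98.8% of V321L GCs, and UMIs of at least 2 subunits in 33.0% and 67.9% of GCs, 79.5% and 85.9% of CA3 type neurons and 81.8% and 90.3% of interneurons, at the unequal depths given above. Of WT GCs with a *Grik4* UMI, 1507 of 1541 also had a *Grik2* UMI, and of V321L GCs 1651 of 1674. Over all GCs, 95.9% of WT and 97.8% of V321L nuclei had a *Grik2* UMI. Of V321L interneurons with *Grik1*, 107 of 111 also had *Grik2*, which 95.8% of all V321L interneurons had. Whether subunits occur together more often than these rates give was not tested.

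OPC levels in the genotypes are given for all 6 genes as values without a test. *Grik1* stood at 528, 662, 929 and 585 CPM in WT and at 393, 383, 581 and 441 CPM in V321L mice, and *Grid1* at 923, 952, 1062 and 1211 CPM in WT and at 810, 678, 844 and 563 CPM in V321L mice. *Grid1* did not overlap between genotypes and *Grik1* did, but the share of all genes without overlap in OPCs was not counted. In GCs 91.9% of the genes tested of at least 200000 bases, a class that includes *Grid1*, were called lower in V321L. *Grik2* was 2469 ± 212 CPM in WT and 1095 ± 105 CPM in V321L mice (SD, n = 4), from 64 and 142 nuclei. *Grik4* was 224 ± 73.4 CPM in WT and 327 ± 67.3 CPM in V321L mice, *Grik3* 88.4 ± 125 and 105 ± 28.8 CPM, and *Grik5* 131 ± 181 and 73.9 ± 25.8 CPM, the last 2 genes on 4 and 6 UMIs in WT.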
